A study of Mus musculus with 30 samples.

Results

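The 40 cell division genes described here are 12 genes of DNA replication (S phase), 4 transcription regulators of the cell cycle and 24 genes of mitosis. They were chosen by name, with earlier results of these data known, from 21631 protein-coding genes on chromosomes 1 to 19 and X. All 40 matched the RefSeq gene table. A peak belongs to a gene if it touches the gene span widened by 1 kb. A peak that touches none belongs to the closest gene end, up to 50 kb away.

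The study profiled lymphoid cells of C57BL/6 mice that all carry a floxed Crebbp (CBP) allele, CBPfl/fl. Wild-type mice (CBPfl/fl:Mx-Cre-) lacked the Cre, and Crebbp-/- mice (CBPfl/fl:Mx-Cre+) carried Mx-Cre, which an interferon response switches on in blood cells and in some other tissues. Wild-type B cells were B220+ splenocytes isolated by flow sorting, with 2 peak lists per acetylation mark (H3K27ac, H3K18ac, H3K56ac) and 1 list for CBP itself. Crebbp-/- lymphoproliferative disease (LPD) was unsorted splenocytes, with 2 lists for each of the 3 marks, so genotype, disease and sorting differ between these groups and cannot be told apart. Progenitors were Lin- IL7ra+ bone marrow cells sorted from each genotype, with 1 H3K27ac list per genotype. The labels give no age and do not say whether same-group lists come from separate animals, so the spread between them may be technical. In all, 15 of 30 samples have a list used here, and the 14 RNA-seq samples and the input were not analysed here.

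CBP, the protein of Crebbp, is an acetyltransferase that marks histone H3 at active promoters and enhancers, and H3K27ac, H3K18ac and H3K56ac are 3 of the lysines it can acetylate. Genes of S phase are switched on before replication by E2F factors, whereas genes of mitosis are switched on later through CCAAT boxes and the cell cycle genes homology region (CHR), an element bound by the DREAM complex in resting cells and by MuvB with B-MYB and FOXM1 in dividing cells. Resting spleen B cells divide little, and proliferating lymphoid cells pass through both programmes.

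Each list gives positions only, so no read depth or peak height is known, and the covered length of a list takes its place. In H3K27ac the lists covered 26.4 to 27.1 Mb in B cells and 26.2 Mb in LPD list 1, but 18.2 Mb in LPD list 2. In H3K18ac the B cell lists covered 13.3 and 14.01 Mb and the LPD lists 29.5 and 21.4 Mb, and in H3K56ac the B cell lists covered 10.6 and 9.44 Mb and the LPD lists 17.0 and 18.3 Mb. LPD lists were therefore longer in the latter marks, and the main counts below are set beside the same value over all genes. A larger share of cells that carry a mark and a stronger mark per cell cannot be told apart in these bulk samples. All 6 B cell markers had an H3K27ac peak in all 4 lists, and together they covered 49.3 and 46.5 kb in B cells against 43.2 and 29.9 kb in LPD, with 4 shorter in both LPD lists and 0 longer. In H3K18ac and H3K56ac all 6 were longer in both LPD lists. Erythroid markers covered 2.14 and 1.49 kb of H3K27ac in B cells against 8.51 and 4.81 kb in LPD, with Gata1 and Epor at 0, and the number of the 7 with a peak was 2 in each B cell list, 5 in LPD list 1 and 4 in LPD list 2. Of 7 T and NK cell markers 6 had no H3K27ac peak in any list, and Lyz2, Mpo and Elane of the 8 myeloid markers were at 0 in every mark. The myeloid markers covered 10.1 and 10.5 kb of H3K27ac in B cells against 5.80 and 3.74 kb in LPD, with lost regions at Itgam and Spi1. Csf3r was shorter in that mark too, at 1.71 and 1.69 kb in B cells against 0.689 and 0.262 kb in LPD. In H3K18ac the myeloid markers covered 3.89 and 4.12 against 7.44 and 5.76 kb, with Cebpa and Csf3r gained. In H3K56ac Csf3r was gained and Spi1 had a lost region. Kit, Il7r, Rag1 and Igll1 of the 6 stem and progenitor markers were at 0 in every mark, whereas Flt3 had 8.74 and 8.27 kb of H3K27ac in B cells against 3.65 and 3.09 kb in LPD, and Dntt 0.281 and 0.326 kb against none. The part of these marker differences in the results below was not tested.

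A larger share of the mitosis genes than of the S phase genes listed here carried acetylated regions found in LPD and not in B cells, a difference between classes that was not tested. Overlapping peaks of a mark's 4 lists were joined into regions. A gained region is present in both lists of LPD and absent from both of B cells, and a lost region is the reverse. In H3K27ac, 13 of 24 mitosis genes with a region had a gained one, against 1 of 11 S phase genes and 1 of 4 regulators, beside a background of 20.0% of all genes with a region. In H3K18ac the counts were 14 of 22, 3 of 11 and 2 of 4, beside 37.9%, and in H3K56ac 15 of 23, 5 of 12 and 1 of 4, beside 33.6%. The mitosis shares of 54.2, 63.6 and 65.2% were thus above the background in each mark, and the S phase share was below it in H3K27ac and H3K18ac and above it at 41.7% in H3K56ac. Lost regions were assigned to 3 of 39 members in H3K27ac, 0 of 37 in H3K18ac and 3 of 39 in H3K56ac, beside backgrounds of 23.3, 8.78 and 7.77%, so the H3K56ac share was close to its background.

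**Figure D1:**
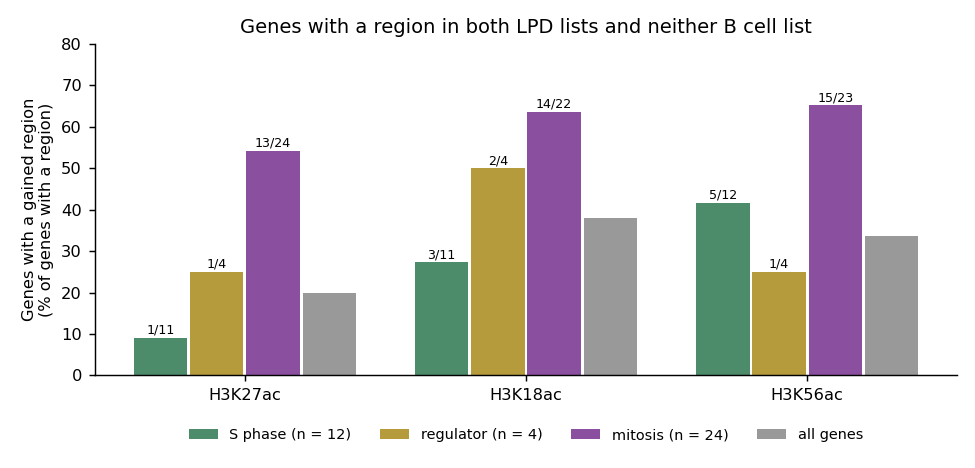
Share of genes with a gained region (vertical axis, percent of genes with a region of the mark) for each mark (horizontal axis) and gene class; numbers over the bars are genes gained over genes with a region. The mitosis bars stand at 54.2, 63.6 and 65.2%, above the grey bars of all genes at 20.0, 37.9 and 33.6%.

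Whether a gain is called depends on how much each list covers. Every list of a mark was shortened to the shortest by keeping its widest peaks, so only the shortest list kept all its narrow peaks. That list was LPD list 2 in H3K27ac and a B cell list in H3K18ac and H3K56ac. By design the setting thus tends towards gained calls in H3K27ac and towards lost calls in the other marks. In H3K27ac, 11 of 23 mitosis genes and 3 of 11 S phase genes were then gained, beside 25.5% of all genes, and 8.10% of all genes had a lost region. Under the same setting the H3K18ac counts were 2 of 16 and 1 of 10, beside 7.87%, and the H3K56ac counts 3 of 18 and 0 of 8, beside 6.18%. The mitosis shares were then 47.8, 12.5 and 16.7%, so that in H3K18ac and H3K56ac few genes carried the difference from the background. Lost regions were common in those marks under that setting, at 16 of 29 and 15 of 30 members, beside 50.7 and 43.7% of all genes. With only peaks of at least 500 bp, 8 of 20 mitosis genes were gained in H3K18ac, beside 32.5%.

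The length of peaks assigned to a class, summed over its genes, differed in the same way. Mitosis genes held 20.3 and 21.8 kb of H3K27ac in the B cell lists and 43.8 and 27.8 kb in the LPD lists. For H3K18ac these were 11.05 and 11.13 kb against 39.1 and 24.3 kb, and for H3K56ac 8.42 and 9.51 kb against 28.7 and 31.4 kb. Both LPD lists lay above both B cell lists in each mark, at log2 ratios of means of 0.77, 1.51 and 1.75, while an exact two-sided permutation test of 2 lists against 2 cannot go below p = 0.333, the value reached here. S phase genes held 11.96 and 11.61 kb of H3K27ac in B cells against 17.7 and 11.3 kb in LPD, groups that overlap, and their log2 ratios were 0.30, 0.51 and 0.79 in H3K27ac, H3K18ac and H3K56ac. Over all genes the ratios were -0.23, 0.85 and 0.79. Divided by the covered length of each list, the mitosis ratios were 1.02, 0.60 and 0.92 and the S phase ratios 0.56, -0.39 and -0.04, with all genes at 0.04, -0.05 and -0.03. On that scale the S phase values for H3K18ac and H3K56ac changed sign, and the mitosis values did not.

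**Figure D2:**
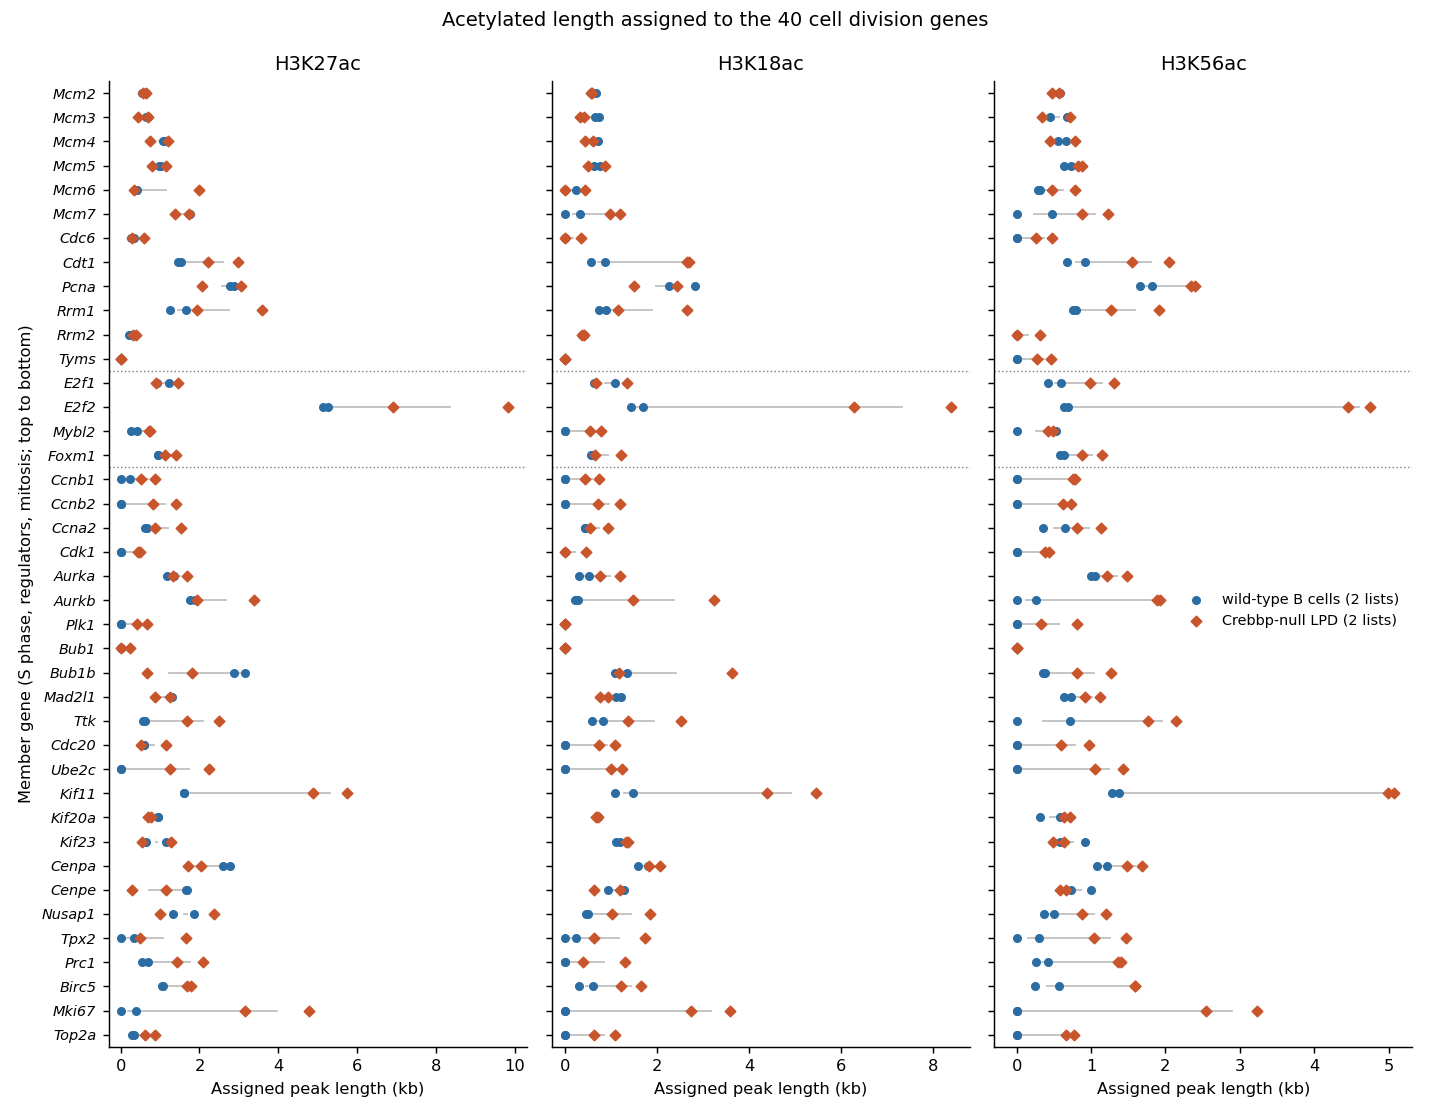
Peak length assigned to each of the 40 genes (horizontal axis, kb; one panel per mark), with 1 point per list, circles for B cells and diamonds for LPD, and a grey line between group means. E2f2, Kif11 and Mki67 show the widest gaps, and most Mcm genes lie with both groups close together.

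Most of the difference in start coverage at mitosis genes lay on the side of the start site that runs into the gene. Start sites came from the RefSeq promoter table, which held 34 of the 40 genes: 20 mitosis genes, 11 S phase genes and 3 regulators. Mcm4, Foxm1, Ccna2, Aurkb, Kif20a and Tpx2 were not matched. At 200 bp after the start site, H3K27ac peaks covered 6 of 20 mitosis genes in each B cell list, 19 in LPD list 1 and 16 in LPD list 2. For H3K18ac these were 3 in each B cell list and 17 and 14 in LPD, and for H3K56ac 5 in each B cell list and 18 and 16 in LPD. At 300 bp before the start site the groups lay closer, with 9 and 11 genes in B cells and 14 and 12 in LPD for H3K27ac. H3K18ac covered 8 and 9 against 12 and 10 there, and H3K56ac 8 and 6 against 11 and 12.

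By the same call as for regions, 11 of the 19 mitosis genes covered in some H3K27ac list were gained at 200 bp after the start site, beside a background of 3.80%. For H3K18ac 11 of 17 were gained, beside 12.5%, and for H3K56ac 11 of 18, beside 10.7%. Before the start site the gained counts were 2 of 14, 2 of 12 and 4 of 14 in the same order of marks, beside 2.92, 11.5 and 15.6%. The genes gained after the start site in all 3 marks were Ccnb1, Ccnb2, Cdc20, Ube2c, Kif11, Kif23, Nusap1, Birc5 and Mki67. Cdk1 joined them in H3K27ac and H3K56ac, Top2a in H3K18ac and H3K56ac, Ttk in H3K27ac and Prc1 in H3K18ac. S phase genes showed no such step: 7 of 11 were covered by H3K27ac after the start site in each of the 4 lists, and 0, 1 and 0 of 7 were gained in H3K27ac, H3K18ac and H3K56ac, the 1 being Mcm7. Both positions were chosen after the coverage curves were seen. With lists of equal length, the gained mitosis counts after the start site were 7 of 17 covered in some list in H3K27ac, 2 of 8 in H3K18ac and 2 of 8 in H3K56ac, beside 13.1, 2.75 and 3.38% of all genes. Covered mitosis genes there then numbered 3 in each B cell list and 10 and 16 in LPD for H3K27ac. For H3K18ac they were 3 in each B cell list and 3 and 6 in LPD, and for H3K56ac 3 and 5 against 4 in each LPD list, so the groups met or overlapped in those marks. In those marks the LPD lists are the ones shortened most.

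**Figure D3:**
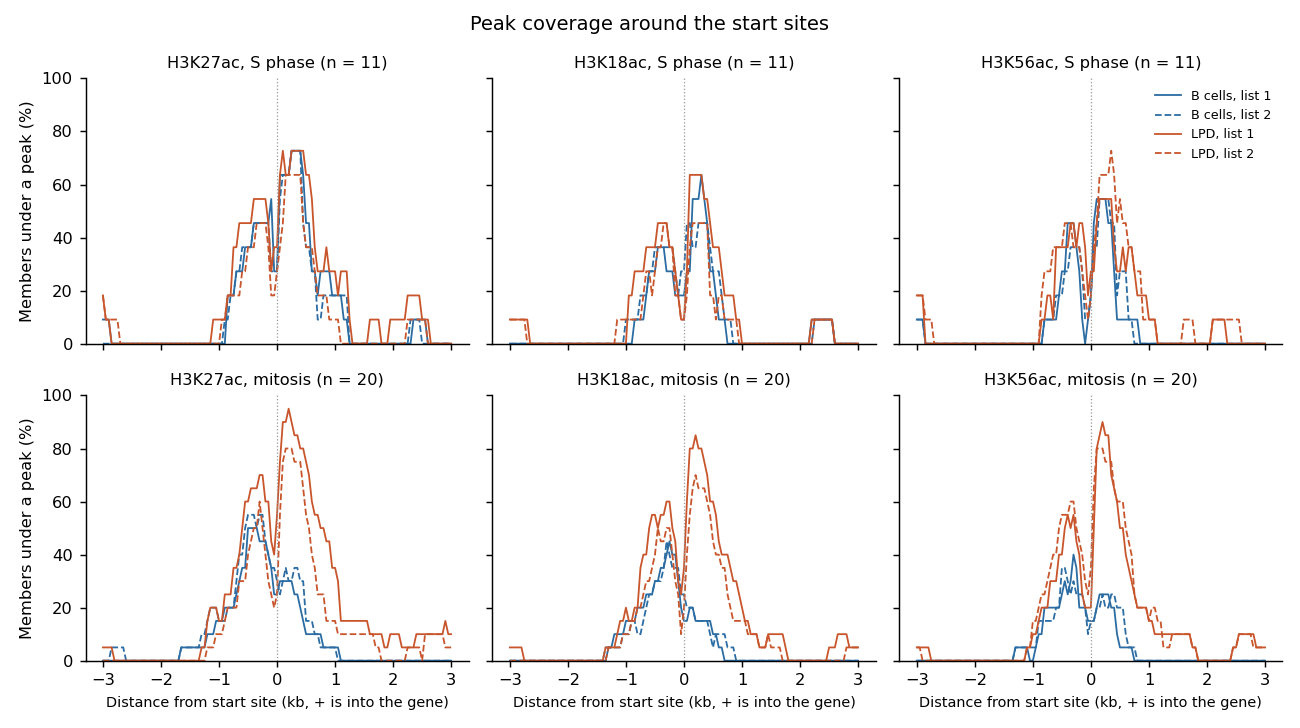
Share of genes under a peak (vertical axis, percent) by distance from the start site (horizontal axis, kb, positive into the gene) for S phase (top) and mitosis genes (bottom), one panel per mark and one line per list. In the mitosis panels the LPD lines reach 70 to 95% at 200 bp inside the gene, where the B cell lines lie at 15 to 30%.

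Sequences before the start site are shown for the motif letters counted below. The stretches below are 5 mitosis genes gained at or next to the start and 2 S phase genes with E2F motifs, 120 bases each, from RefSeq (build GRCm38.p6, the same coordinates as mm10), written 5′ to 3′ on the strand of the gene. Capitals mark CCAAT on either strand (ATTGG on the reverse), the CHR letters TTTGAA or TTTAAA on either strand (TTCAAA on the reverse of TTTGAA), and E2F motifs (TTTCCCGC, TTTGGCGC, TTTCGCGC or TTTGCCGC, either strand; some overlap each other). Ccnb1 (chr13:100786487-100786606, minus strand), Cdc20 (chr4:118437344-118437463, minus), Cdk1 (chr10:69352913-69353032, minus), Ube2c (chr2:164769809-164769928, plus) and Mcm6 (chr1:128359706-128359825, minus) end 1 base before the start site. Mki67 (chr7:135716460-135716579, minus) and Mcm5 (chr8:75109309-75109428, plus) run from 200 to 81 bases before it. Each stretch is part of the window counted below, and motifs outside the stretch are not shown. Mcm5 also has a CHR motif at -221 and CCAAT at -77, -22 and 7, and Cdk1 has E2F letters at -131.
Ccnb1: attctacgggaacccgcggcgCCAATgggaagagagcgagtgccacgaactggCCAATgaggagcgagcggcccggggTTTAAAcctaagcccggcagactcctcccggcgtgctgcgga
Cdc20: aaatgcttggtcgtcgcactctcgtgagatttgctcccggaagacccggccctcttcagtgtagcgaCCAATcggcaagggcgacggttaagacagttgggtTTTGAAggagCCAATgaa
Cdk1: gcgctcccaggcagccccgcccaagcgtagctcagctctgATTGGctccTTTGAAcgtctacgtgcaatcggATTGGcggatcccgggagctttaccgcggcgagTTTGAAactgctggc
Ube2c: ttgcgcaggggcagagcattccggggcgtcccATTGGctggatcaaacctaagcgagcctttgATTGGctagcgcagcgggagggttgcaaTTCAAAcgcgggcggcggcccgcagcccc
Mki67: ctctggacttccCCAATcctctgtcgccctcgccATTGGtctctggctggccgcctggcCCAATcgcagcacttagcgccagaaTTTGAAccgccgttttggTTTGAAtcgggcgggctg
Mcm6: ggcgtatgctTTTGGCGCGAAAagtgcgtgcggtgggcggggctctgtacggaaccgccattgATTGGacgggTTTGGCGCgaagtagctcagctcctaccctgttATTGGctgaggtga
Mcm5: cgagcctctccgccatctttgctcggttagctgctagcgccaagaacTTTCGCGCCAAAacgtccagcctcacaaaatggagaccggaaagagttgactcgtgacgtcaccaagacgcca

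In the window from 250 bases before to 50 after the start site, 17 of 20 mitosis genes held a CHR motif, against 3 of 11 S phase genes and 27.7% of 17274 protein-coding genes with a window. CCAAT was in 17 of 20 mitosis and 8 of 11 S phase genes, beside 42.7% of all. E2F letters were in 1 of 20 mitosis genes, Cdk1, and in 6 of 11 S phase genes, Mcm3, Mcm5, Mcm6, Mcm7, Cdc6 and Cdt1, beside 3.33% of all. CCAAT and CHR together were in 16 of 20 mitosis and 3 of 11 S phase genes, beside 11.6%. In the stretches above the CHR follows the last CCAAT in Ccnb1 (positions -67 and -42) and Ube2c (-57 and -29), lies between both CCAAT boxes of Cdc20 (-53, -18 and -8) and is present at 2 places after 3 CCAAT boxes in Mki67 (-116 and -98). Of the 20 members with both motifs, 4, 5 and 9 had a gained start window in H3K27ac, H3K18ac and H3K56ac. Of the 14 without both, 0, 2 and 0 had one. The shares over all genes with a covered start window were 2.73, 10.1 and 10.2%, and all genes with both motifs were not counted separately. Mitosis genes made up 16 of the 20, so motif and class cannot be told apart in these counts. A match of letters is a description and not a shown binding site.

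Across the whole window, the same call gave a gain for 4 of 20 mitosis genes in H3K27ac, 5 in H3K18ac and 8 in H3K56ac. The backgrounds among genes covered in some list were 2.73, 10.1 and 10.2%. Ccnb2 and Mki67 were gained at the start window in all 3 marks. S phase genes had 0, 1 and 0 such windows, and Mcm2, a subunit of the replicative helicase, was the 1 S phase gene with a lost window, in H3K18ac (background 1.87%), though peaks next to that window were in all 4 lists.

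Cyclins and their kinase opened the list of gained mitosis genes. Ccnb2 encodes cyclin B2, a partner of CDK1 at mitotic entry. Its H3K27ac peaks covered 0 kb in both B cell lists and 1.40 and 0.825 kb in the LPD lists. H3K18ac there covered 0 kb in both B cell lists and 1.19 and 0.705 kb in the LPD lists, and H3K56ac 0 kb in both B cell lists and 0.729 and 0.623 kb in the LPD lists. No list of B cells held any peak, and both LPD lists held peaks in every mark. Ube2c was the only other gene with that pattern among the 40, beside 2.47% of 12778 genes with a region. The Ccnb2 regions flank its start: H3K27ac regions lay at chr9:70421044-70421549, from 4 bp inside the gene, and chr9:70421665-70422178, from 111 bp upstream.

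Ccnb1, the gene of cyclin B1, had 0 and 0.228 kb in the B cell lists and 0.879 and 0.518 kb in the LPD lists of H3K27ac, so the groups did not overlap although 1 B cell list held a peak. In H3K18ac it had 0 kb in both B cell lists and 0.739 and 0.434 kb in the LPD lists, and in H3K56ac 0 kb in both B cell lists and 0.755 and 0.788 kb in the LPD lists. Cdk1, the kinase that drives cells into mitosis, had 0 kb in both B cell lists and 0.495 and 0.447 kb in the LPD lists of H3K27ac. Its H3K56ac was 0 kb in both B cell lists and 0.435 and 0.378 kb in the LPD lists, while H3K18ac was in LPD list 1 alone at 0.439 kb. Ccna2 encodes cyclin A2, which acts in S phase and at mitotic entry. Peaks were there in all 12 lists, with H3K27ac at 0.663 and 0.604 kb in the B cell lists and 1.53 and 0.875 kb in the LPD lists, and a gained region inside the gene (chr3:36571228-36571945) in H3K27ac and H3K18ac. Its H3K18ac was 0.418 and 0.425 kb in the B cell lists and 0.938 and 0.535 kb in the LPD lists and its H3K56ac 0.354 and 0.650 kb in the B cell lists and 0.815 and 1.13 kb in the LPD lists, longer in LPD in each mark, though in H3K18ac it was shorter once divided by list length.

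Mitotic kinases differed among themselves. Aurkb encodes the kinase of the chromosomal passenger complex and Birc5 its survivin subunit. Aurkb H3K27ac covered 1.76 and 1.89 kb in the B cell lists and 3.39 and 1.95 kb in the LPD lists, its H3K18ac 0.2 and 0.273 kb in the B cell lists and 3.24 and 1.48 kb in the LPD lists and its H3K56ac 0.263 and 0 kb in the B cell lists and 1.88 and 1.92 kb in the LPD lists. LPD list 2 was just above the B cell lists in H3K27ac and far above them in the other marks. A gained H3K27ac region of 1216 bp lay within 1 kb of an Aurkb end (chr11:69045606-69046821). Birc5 had 1.07 and 1.04 kb in the B cell lists and 1.78 and 1.69 kb in the LPD lists of H3K27ac, 0.598 and 0.305 kb in the B cell lists and 1.64 and 1.22 kb in the LPD lists of H3K18ac and 0.566 and 0.246 kb in the B cell lists and 1.59 and 1.59 kb in the LPD lists of H3K56ac. A region just inside the gene was gained in each mark, 711 bp long in H3K27ac and beginning 54 bp after the start (chr11:117849291-117850001), and the region upstream of the start was kept in each mark. Plk1, polo-like kinase 1, had 0 kb in both B cell lists and 0.675 and 0.417 kb in the LPD lists of H3K27ac and 0 kb in both B cell lists and 0.334 and 0.806 kb in the LPD lists of H3K56ac, and no H3K18ac peak in any list. Ttk encodes the checkpoint kinase MPS1, and its H3K27ac was 0.559 and 0.625 kb in the B cell lists and 2.50 and 1.69 kb in the LPD lists, its H3K18ac 0.577 and 0.817 kb in the B cell lists and 2.52 and 1.35 kb in the LPD lists and its H3K56ac 0 and 0.722 kb in the B cell lists and 2.14 and 1.77 kb in the LPD lists. Only H3K27ac gave a gained region there, at -2810 bp from the start (chr9:83830853-83831878). Aurka, Aurora kinase A, had no called region, with 1.26 ± 0.123 kb (SD, n = 2 lists) of H3K27ac in B cells against 1.504 ± 0.267 kb in LPD. Its H3K18ac was 0.294 and 0.514 kb in B cells against 1.183 and 0.758 kb in LPD, and its H3K56ac 1.007 and 1.053 kb against 1.211 and 1.485 kb. Both were longer in both LPD lists, though H3K56ac was shorter once divided by list length.

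Ube2c and Cdc20 act with the anaphase-promoting complex, and Ube2c stood among the clearest cases. Ube2c encodes the ubiquitin-conjugating enzyme of that complex. It had 0 kb in both B cell lists and 2.23 and 1.24 kb in the LPD lists of H3K27ac, 0 kb in both B cell lists and 1.23 and 0.982 kb in the LPD lists of H3K18ac and 0 kb in both B cell lists and 1.05 and 1.43 kb in the LPD lists of H3K56ac. Its peaks formed a region from the start and another near the far end of the gene (chr2:164773060-164774371, H3K27ac), both absent from B cells. Cdc20, the activator of the complex, had 0.593 and 0.585 kb in the B cell lists and 1.16 and 0.521 kb in the LPD lists of H3K27ac, where the groups overlapped. In H3K18ac it had 0 kb in both B cell lists and 1.08 and 0.731 kb in the LPD lists and in H3K56ac 0 kb in both B cell lists and 0.592 and 0.974 kb in the LPD lists. The B cell H3K27ac peak lay upstream of the start and LPD added a region that begins 7 bp inside the gene (chr4:118436733-118437335).

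The other checkpoint genes varied between marks, whereas Ttk was longer in both LPD lists of each mark. Bub1b, which encodes the checkpoint protein BUBR1, went from 3.02 ± 0.194 kb of H3K27ac in B cells to 1.23 ± 0.803 kb in LPD, with 2 lost regions near and beyond its far end. In H3K56ac it had 0.363 ± 0.0184 kb in B cells against 1.04 ± 0.319 kb in LPD, with a gained region inside the gene. Mad2l1, the gene of MAD2, had no called region and 1.27 ± 0.0403 against 1.05 ± 0.271 kb of H3K27ac, with overlap. Its H3K18ac was shorter in both LPD lists, 1.099 and 1.21 kb in B cells against 0.922 and 0.763 kb, and its H3K56ac longer, 0.730 and 0.634 kb against 0.922 and 1.118 kb, though shorter once divided by list length. Bub1 had a peak in a single list, 0.243 kb of H3K27ac in LPD list 1.

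Among the spindle motors and microtubule-binding genes, Kif11 had the largest summed difference between groups. Kif11 encodes the motor Eg5, which pushes spindle poles apart. Its H3K27ac was 1.61 and 1.60 kb in the B cell lists and 5.75 and 4.88 kb in the LPD lists, its H3K18ac 1.47 and 1.09 kb in the B cell lists and 5.45 and 4.38 kb in the LPD lists and its H3K56ac 1.38 and 1.28 kb in the B cell lists and 4.99 and 5.07 kb in the LPD lists. The groups lay far apart in every mark. In H3K27ac the region over the start was kept, with 1.03 and 1.11 kb in B cells against 2.97 and 2.87 kb in LPD, and regions inside the gene were gained (chr19:37378765-37379310 and chr19:37380266-37381273). Prc1, which bundles midzone microtubules, had 0.541 and 0.691 kb in the B cell lists and 2.08 and 1.44 kb in the LPD lists of H3K27ac, 0 kb in both B cell lists and 1.31 and 0.394 kb in the LPD lists of H3K18ac and 0.256 and 0.427 kb in the B cell lists and 1.36 and 1.40 kb in the LPD lists of H3K56ac. Its gained regions also overlap the widened span of the neighbouring Rccd1. Tpx2, a spindle assembly factor and activator of Aurora A, had 0.336 and 0 kb in the B cell lists and 1.65 and 0.485 kb in the LPD lists of H3K27ac, where the LPD lists lay far apart. Its H3K18ac was 0.225 and 0 kb in the B cell lists and 1.74 and 0.614 kb in the LPD lists and its H3K56ac 0 and 0.305 kb in the B cell lists and 1.04 and 1.47 kb in the LPD lists. Nusap1, a spindle microtubule binder, had 1.33 and 1.86 kb in the B cell lists and 2.38 and 1.003 kb in the LPD lists of H3K27ac, with 1 region gained beside the start and 2 lost further inside the gene. In H3K18ac it had 0.453 and 0.494 kb in the B cell lists and 1.85 and 1.01 kb in the LPD lists and in H3K56ac 0.508 and 0.367 kb in the B cell lists and 0.886 and 1.20 kb in the LPD lists, both longer in LPD. The gained Nusap1 region is shared with Oip5, which lies next to it.

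Kif20a and Kif23, motors of cytokinesis, differed less. Kif20a had no called region and 0.943 ± 0.00566 kb of H3K27ac in B cells against 0.731 ± 0.0467 kb in LPD. Kif23 had 1.15 ± 0.0622 kb of H3K18ac in B cells against 1.34 ± 0.0424 kb in LPD, with a region gained from 65 bp inside the gene. In H3K56ac it had 0.756 ± 0.240 kb in B cells against 0.560 ± 0.107 kb in LPD, with 2 regions lost upstream of the start. Of the called Kif23 regions, the lost ones thus lay before the start in H3K56ac and the gained one after it in H3K18ac. At 200 bp after the start site Kif23 was gained in all 3 marks, so in H3K56ac a loss before the start and a gain after it occurred together.

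Cenpe and Cenpa were shorter in both LPD lists in H3K27ac. Cenpe encodes a kinetochore motor, and its H3K27ac was 1.65 and 1.67 kb in the B cell lists and 1.16 and 0.283 kb in the LPD lists, with 2 regions lost upstream (one at chr3:135192218-135193015). Its H3K56ac was 0.996 and 0.735 kb in the B cell lists and 0.585 and 0.666 kb in the LPD lists and its H3K18ac 0.924 and 1.27 kb in the B cell lists and 1.19 and 0.624 kb in the LPD lists, the last with overlapping groups. Relative to the start, the lost H3K27ac regions lay at -11698 and -19547 bp and the lost H3K56ac region at -19900 bp. Counting only peaks within 1 kb of the span gave a longer, not shorter, LPD mean in H3K27ac (by 0.128 kb) and in H3K56ac (by 0.22 kb). Cenpa, the centromeric histone gene, had no called region, and its gene-end H3K27ac was 2.60 and 2.54 kb in B cells against 2.03 and 1.72 kb in LPD, both LPD lists lower. Its H3K18ac was 1.802 and 1.585 kb in B cells and 2.052 and 1.811 kb in LPD and its H3K56ac 1.076 and 1.221 kb and 1.488 and 1.686 kb, longer in both LPD lists, though shorter once divided by list length.

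Mki67 and Top2a complete the mitosis genes. Mki67 encodes Ki-67, a coat protein of mitotic chromosomes widely used as a marker of dividing cells. Its H3K27ac was 0 and 0.378 kb in the B cell lists and 4.78 and 3.15 kb in the LPD lists, its H3K18ac 0 kb in both B cell lists and 3.58 and 2.74 kb in the LPD lists and its H3K56ac 0 kb in both B cell lists and 3.23 and 2.55 kb in the LPD lists. Its gained regions numbered 2, 6 and 3 in these marks, including a region of 3583 bp in H3K27ac that starts over the start site and runs into the gene (chr7:135712874-135716456). Top2a, topoisomerase II alpha, had 0.335 and 0.296 kb in the B cell lists and 0.877 and 0.608 kb in the LPD lists of H3K27ac, 0 kb in both B cell lists and 1.07 and 0.616 kb in the LPD lists of H3K18ac and 0 kb in both B cell lists and 0.767 and 0.669 kb in the LPD lists of H3K56ac. B cells kept a short H3K27ac peak there and had none of the other marks.

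In H3K27ac the groups overlapped for 7 of the 11 S phase genes with a region, while 3 were longer and 1 shorter in both LPD lists. Of all 11984 genes with a region, 23.2% were longer and 4659 were shorter. In H3K18ac 3 of 11 S phase genes were longer, 2 were shorter and 6 overlapped, beside 54.0% of all genes longer. In H3K56ac 8 of 12 were longer in both LPD lists, 1 was shorter and 3 overlapped, beside 67.1% of all genes longer. A region was gained in at least 1 mark for 7 of the 12, beside 46.2% of all genes. The helicase genes Mcm2, Mcm3, Mcm4 and Mcm5 had peaks in all 12 lists and no gained or lost region in any mark. Their H3K27ac means were 0.590, 0.665, 1.11 and 0.992 kb in B cells against 0.593, 0.564, 0.971 and 0.972 kb in LPD, with overlapping groups in each. In H3K18ac, Mcm3 (B cells 0.654 and 0.728 kb, LPD 0.326 and 0.402 kb) and Mcm4 (B cells 0.599 and 0.704 kb, LPD 0.591 and 0.427 kb) were shorter in both LPD lists. Mcm6 had 0.304 ± 0.0205 kb of H3K56ac in B cells against 0.629 ± 0.223 kb in LPD, with a gained region inside the gene. Mcm7 had 0.158 ± 0.223 kb of H3K18ac in B cells against 1.08 ± 0.146 kb in LPD. Its gained region is shared with Ap4m1, and its gene-end H3K27ac was among the widest of the class at 1.76 and 1.74 kb in B cells against 1.74 and 1.37 kb in LPD.

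Cdt1 was the S phase gene gained in all 3 marks. It encodes a protein that loads the helicase at origins together with the product of Cdc6. Its H3K27ac was 1.45 and 1.54 kb in the B cell lists and 2.98 and 2.20 kb in the LPD lists, its H3K18ac 0.568 and 0.869 kb in the B cell lists and 2.69 and 2.64 kb in the LPD lists and its H3K56ac 0.682 and 0.918 kb in the B cell lists and 1.56 and 2.05 kb in the LPD lists. The start window was kept in all 4 lists of each mark, and the gained H3K27ac region lay at -2731 bp from the start site (chr8:122564143-122565283). Cdc6 lacked H3K56ac in B cells but had 0.369 ± 0.145 kb in LPD. Pcna, the sliding clamp, had the widest gene-end H3K27ac of the class, 2.87 and 2.78 kb in B cells against 3.05 and 1.44 kb in LPD. In H3K56ac Pcna had 1.74 ± 0.108 kb in B cells against 2.37 ± 0.0403 kb in LPD, and its gained region also overlaps the widened span of Cds2.

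Nucleotide synthesis genes were mixed. Rrm1, the large subunit of ribonucleotide reductase, had 1.67 and 1.24 kb in the B cell lists and 3.58 and 1.94 kb in the LPD lists of H3K27ac, 0.723 and 0.889 kb in the B cell lists and 2.65 and 1.14 kb in the LPD lists of H3K18ac and 0.761 and 0.796 kb in the B cell lists and 1.27 and 1.91 kb in the LPD lists of H3K56ac, longer in LPD in each mark with 1 gained region, inside the gene in H3K18ac. Rrm2, the small subunit, had no called region and 0.213 ± 0.0177 kb of H3K27ac in B cells against 0.344 ± 0.0580 kb in LPD. Tyms, thymidylate synthase, had no H3K27ac or H3K18ac peak in these lists, and 0.369 ± 0.141 kb of H3K56ac in LPD against none in B cells.

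Among the regulators E2f2 stood out. E2f2 encodes an activating E2F factor. Its H3K27ac was 5.13 and 5.26 kb in the B cell lists and 9.83 and 6.92 kb in the LPD lists, its H3K18ac 1.42 and 1.68 kb in the B cell lists and 8.38 and 6.28 kb in the LPD lists and its H3K56ac 0.644 and 0.691 kb in the B cell lists and 4.46 and 4.75 kb in the LPD lists. The summed LPD minus B cell difference over the 3 marks was 12.9 kb, ahead of Kif11 at 11.04 kb and Mki67 at 9.82 kb. E2f2 had the most gained regions of any member in H3K56ac, 6, and 3 in H3K18ac, one of them 2444 bp long and starting 57 bp inside the gene (chr4:136172331-136174774). Its gene-end H3K27ac was 0.912 and 0.885 kb in B cells against 2.77 and 2.65 kb in LPD. E2f2 also acts in maturing red cells, and the erythroid marker lengths given above were higher in LPD too. Their part in the E2f2 result was not tested.

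E2f1, another activator, had 0.512 ± 0.129 kb of H3K56ac in B cells against 1.15 ± 0.233 kb in LPD, with a region of 210 bp lost upstream. Its gene-end H3K27ac was 0.896 and 0.618 kb in B cells against 1.05 and 0.703 kb in LPD, overlapping. Mybl2, which encodes B-MYB, lacked H3K18ac in B cells but had 0.652 ± 0.175 kb in LPD, over the start (chr2:163054619-163055394). Foxm1 had no called region, and its H3K27ac region, shared with Rhno1, was 0.957 and 0.936 kb wide in B cells against 1.40 and 1.13 kb in LPD. It was longer in LPD in all 3 marks, though divided by list length it was shorter in H3K18ac and H3K56ac.

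Over all 40 genes, 11 were gained in all 3 marks: Cdt1, E2f2, Ccnb2, Aurkb, Cdc20, Ube2c, Kif11, Nusap1, Prc1, Birc5 and Mki67. The background was 13.8% of 12778 genes with a region of any mark. Ccnb1, Ccna2, Cdk1, Plk1, Tpx2 and Top2a were gained in 2 marks, so that 17 genes were gained in 2 or 3 marks, beside 26.1%. Another 10 were gained in 1 mark and 13 in none. The 5 genes with a lost region in some mark were E2f1, Bub1b, Kif23, Cenpe and Nusap1, beside 25.5%. In single marks, LPD was longer without overlap for 20, 23 and 32 members in H3K27ac, H3K18ac and H3K56ac, beside 23.2, 54.0 and 67.1%. LPD was longer without overlap in all 3 marks for 16 genes, 12 of them mitosis genes with Cdt1, Rrm1, E2f2 and Foxm1, beside 18.1% of all genes. Of the regions assigned to the 40 genes, 19 of 108 were gained, 6 lost and 45 kept in H3K27ac, beside 11.4, 15.9 and 36.5% of all regions. In H3K18ac 30 of 92 were gained, 0 lost and 31 kept, beside 25.0, 3.88 and 29.5%, and in H3K56ac 35 of 101 were gained, 4 lost and 26 kept, beside 23.7, 4.21 and 35.1%. Without LPD list 2, gained regions numbered 42 in H3K27ac and 53 in H3K18ac. Of the gained regions 11, 19 and 19 lay within 1 kb of a gene end in the same order of marks, and 2, 3 and 3 were shared with another gene.

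Gene-end width, the length of the peaks that reach within 1 kb of either end of a gene, gave the same split. For mitosis genes the median LPD minus B cell difference was 0.45 kb in H3K27ac, 0.49 kb in H3K18ac and 0.47 kb in H3K56ac. S phase genes had medians of 0, 0 and 0.23 kb. In H3K27ac the 3 mitosis genes with the widest gene ends in B cells, Cenpa, Bub1b and Mad2l1, had mean differences of -0.69, -0.87 and -0.22 kb. They were picked by the same B cell widths, so lower LPD values can follow from the choice alone. Bub1b gene ends covered 1.11 and 1.92 kb in B cells against 0.884 and 0.411 kb in LPD, without overlap. Mad2l1 gene ends covered 1.30 and 1.24 kb against 1.24 and 0.859 kb, with overlap. With lists of equal length the mitosis medians were -0.03 kb in H3K18ac and 0 kb in H3K56ac, and the S phase medians were -0.388 and -0.396 kb. The mitosis width difference was thus not seen in those marks, where the LPD lists are shortened most, but S phase genes lay lower than mitosis genes. In H3K27ac the S phase median was 0.246 kb under that setting.

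**Figure D4:**
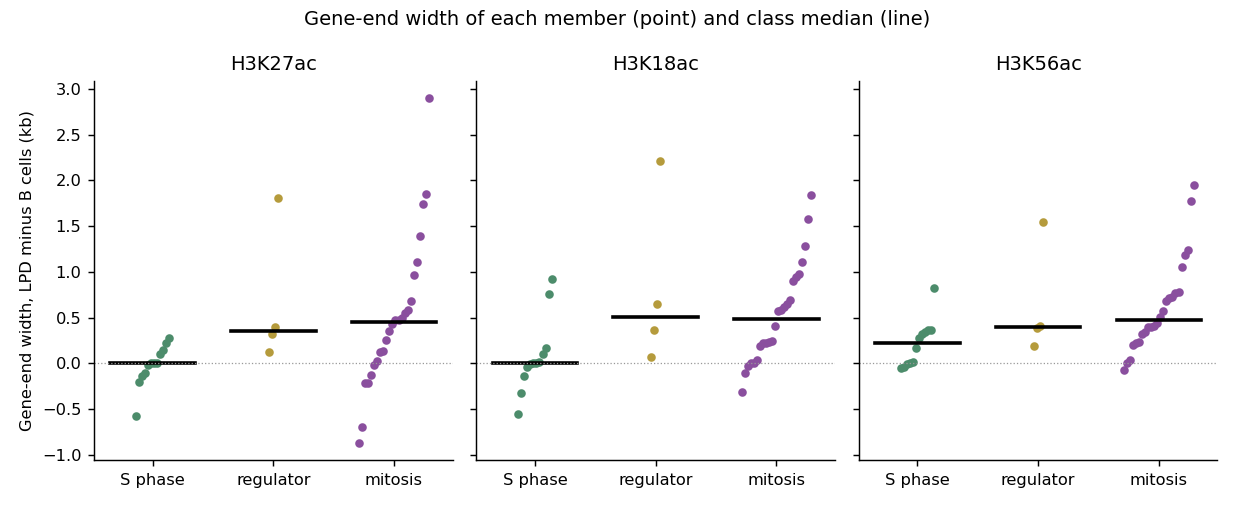
Gene-end width in LPD minus B cells (vertical axis, kb) for each member (points) by class (horizontal axis), one panel per mark, with the class median as a line. Mitosis medians lie at 0.45, 0.49 and 0.47 kb and S phase medians at 0, 0 and 0.23 kb.

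Most of the 40 genes had H3K27ac in progenitors of both genotypes, with 1 list each and therefore no replicate check. An H3K27ac peak was assigned to 34 of 40 genes in wild type and 33 in Crebbp-/-, 31 of them in both. Ccnb2, Plk1 and Cenpe had a peak in wild type only, and Tyms and Ccnb1 in Crebbp-/- only. The members together covered 26.4 kb in wild type and 21.2 kb in Crebbp-/-, and 30 were longer in wild type and 6 in Crebbp-/-. Over all genes 8607 were longer in wild type and 1145 in Crebbp-/-. The wild-type list is itself longer, 9.43 against 6.32 Mb. Genes with a region only in wild type were 8 of 36, beside 37.8% of all genes with a region, and genes with a region only in Crebbp-/- were 2 of 36, beside 4.81%.

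Ccnb2, Cdk1 and Plk1 had no H3K27ac peak in either wild-type B cell list and a peak in wild-type progenitors. Cdk1 covered 0.430 kb in wild-type and 0.434 kb in Crebbp-/- progenitors, Ccnb2 0.584 and 0 kb, and Plk1 0.261 and 0 kb. Mki67, which had a peak in 1 of the B cell lists, covered 0.815 kb in wild-type and 0.914 kb in Crebbp-/- progenitors. Ube2c and Cdc20 had no peak in either progenitor list, so Ube2c had H3K27ac only in the LPD lists among the 6 H3K27ac lists.

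**Figure D5:**
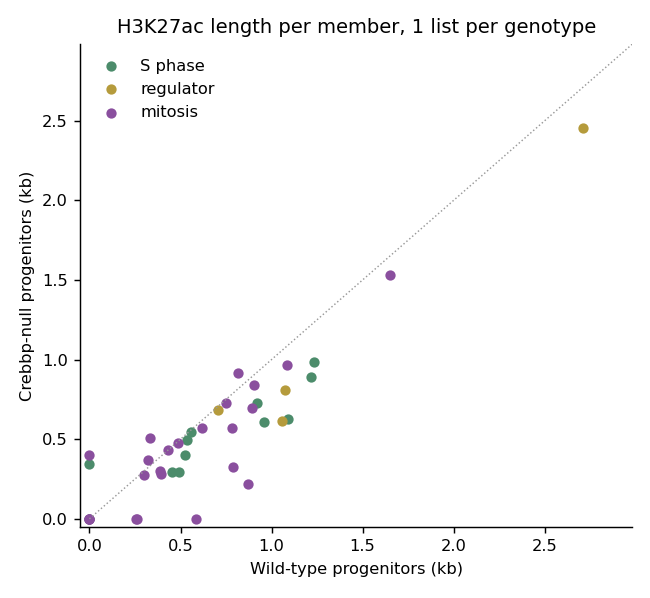
H3K27ac length assigned to each member in wild-type (horizontal axis, kb) and Crebbp-/- progenitors (vertical axis, kb), coloured by class, with a dotted line of equal length. Of the members with a peak 30 lie below the line and 6 above it.

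CBP itself was listed at 2 of the 40 genes in wild-type B cells, beside a background of 3.89% of all genes. A peak of 203 bp lay 48 bp upstream of the Cenpa start (chr5:30666635-30666837), and a peak of 322 bp lay over the Mad2l1 start (chr6:66535186-66535507). Neither gene had a gained or lost region in any mark. The CBP list holds 1000 peaks, so a gene without one cannot be called unbound.

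A wider list held 144 further cell division genes, chosen by function, of which some had no region. At least 1 mark was gained for 47 of 78 mitosis genes, 18 of 48 replication genes and 7 of 18 cell cycle transcription genes, beside 46.2% of all genes with a region. All 3 marks were gained for 12, 3 and 1 of them, beside 13.8%, so the mitosis share was close to that background and the others were below it. In H3K27ac alone the gained shares were 24.7% of mitosis, 14.6% of replication and 22.2% of transcription genes, beside 20.0%. A region was lost in at least 1 mark for 8 mitosis, 9 replication and 8 transcription genes, beside 25.5%. Racgap1, which works with Kif23 in cytokinesis, had no peak in any B cell list and 8.01 ± 2.30 kb of H3K27ac, 8.21 ± 1.66 kb of H3K18ac and 6.98 ± 0.433 kb of H3K56ac in LPD. Cit, a cytokinesis kinase gene, lacked H3K27ac in B cells but had 1.43 ± 0.277 kb in LPD, and Kif20b 0.938 ± 0.214 and 2.50 ± 0.523 kb. Pttg1, securin, had 7.03 ± 0.284 and 7.30 ± 1.41 kb. Among replication genes Uhrf1 had 0.312 ± 0.0728 kb of H3K27ac in B cells against 1.32 ± 0.695 kb in LPD, Pole2 none and 0.433 ± 0.180 kb, and Gins1 0.444 ± 0.136 and 0.875 ± 0.568 kb. Nfya, which encodes a subunit of the CCAAT-binding factor NF-Y, was the transcription gene gained in all 3 marks, with 3.39 ± 0.421 and 4.65 ± 1.07 kb of H3K27ac. Of the genes with losses, Prim2, a primase subunit, had lost regions in all 3 marks and 7.10 ± 0.537 kb of H3K27ac in B cells against 0.718 ± 0.112 kb in LPD. Rfc1, the large subunit of the clamp loader, had lost regions in 2 marks and 6.88 ± 1.501 against 0.946 ± 0.704 kb. The gained genes named here were picked by outcome, as those with regions gained in the most marks and then by gained length. Prim2 and Rfc1 were chosen after their values were seen.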

How the data were processed

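Histone acetylation and CBP binding were measured by ChIP-seq, and the deposited files are peak positions on mm10, with no score, signal or count. Per the submitters' processing notes, Bowtie2 2.1.0, Picard, MACS2 2.0.10 and bedtools were used, and peak thresholds are not given in the sources used here. Depth per sample is therefore unknown. Lists were grouped by the labels, 2 per group and mark (1 for progenitors and CBP). With Python 3.11.15, NumPy 2.4.6 and Matplotlib 3.10.9, peaks were assigned to RefSeq genes (span plus 1 kb, else the nearest end within 50 kb), lengths summed, and regions called on an overlap of 1 bp. Groups were compared by an exact two-sided permutation test, whose smallest p is 0.333. Calls were tested on simulated lists, made from a single real list by removing peaks and shifting peak edges slightly. Lists of unequal covered length were not simulated. The members and gene lists were chosen with earlier results of these data known, and the start-site positions after the coverage curves were seen. Per-list values are given for genes called in 2 or 3 marks, the widest gene ends and the largest differences. Alternatives were other widths, list lengths, windows, left-out lists and a replicate block.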

Additional observations from a re-analysis of the deposited data

How the results depend on the processing

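The log2 length ratios of mitosis genes stayed above 0 when each list was left out, under the replicate block and after division by list length, whereas gained counts in H3K18ac and H3K56ac depended on how much the lists cover. Values that moved are given next as counts of genes, start windows or regions, or in the unit named. H3K27ac with each list shortened to the shortest of its mark gave 3 for S phase genes gained, 0 for all 40 genes lost, 0 for regions lost, 12 for regions kept, 0.246 for the median gene-end difference (kb) of S phase genes and 1 for S phase start windows gained. H3K27ac with each list shortened to the shortest of its mark gave 1 for S phase genes gained 200 bp after the start site, 1 for mitosis genes gained 300 bp before the start site and 7 for mitosis genes gained 200 bp after the start site. H3K18ac with each list shortened to the shortest of its mark gave 4 for all 40 genes gained, 1 for S phase genes gained, 2 for mitosis genes gained, 16 for all 40 genes lost, 4 for regions gained and 21 for regions lost. H3K18ac with each list shortened to the shortest of its mark gave 6 for regions kept, -0.388 for the median gene-end difference (kb) of S phase genes, -0.0328 for the median gene-end difference (kb) of mitosis genes, 0 for S phase start windows gained, 1 for mitosis start windows gained and 0 for S phase genes gained 300 bp before the start site. H3K18ac with each list shortened to the shortest of its mark gave 0 for S phase genes gained 200 bp after the start site, 0 for mitosis genes gained 300 bp before the start site and 2 for mitosis genes gained 200 bp after the start site. H3K56ac with each list shortened to the shortest of its mark gave 3 for all 40 genes gained, 0 for S phase genes gained, 3 for mitosis genes gained, 15 for all 40 genes lost, 3 for regions gained and 16 for regions lost. H3K56ac with each list shortened to the shortest of its mark gave 5 for regions kept, -0.396 for the median gene-end difference (kb) of S phase genes, 0 for the median gene-end difference (kb) of mitosis genes, 1 for mitosis start windows gained, 0 for mitosis genes gained 300 bp before the start site and 2 for mitosis genes gained 200 bp after the start site. H3K27ac with only peaks of at least 500 bp gave 2 for regions lost, 18 for regions kept and 0 for mitosis genes gained 300 bp before the start site. H3K18ac with only peaks of at least 500 bp gave 11 for all 40 genes gained, 1 for S phase genes gained, 8 for mitosis genes gained, 2 for all 40 genes lost, 13 for regions gained and 2 for regions lost. H3K18ac with only peaks of at least 500 bp gave 11 for regions kept, 0 for S phase start windows gained, 3 for mitosis start windows gained, 0 for S phase genes gained 200 bp after the start site, 1 for mitosis genes gained 300 bp before the start site and 5 for mitosis genes gained 200 bp after the start site. H3K56ac with only peaks of at least 500 bp gave 2 for S phase genes gained, 0 for all 40 genes lost, 19 for regions gained, 0 for regions lost, 6 for regions kept and 1 for S phase start windows gained. H3K56ac with only peaks of at least 500 bp gave 5 for mitosis start windows gained and 1 for mitosis genes gained 300 bp before the start site. H3K27ac with only regions within 1 kb of the gene span gave 0 for S phase genes gained and 3 for regions lost. H3K56ac with regions shared between genes left out gave 17 for regions kept. H3K27ac with E2f1 and E2f2 counted as S phase genes gave 2 for S phase genes gained. H3K18ac with lengths divided by the covered length of the list gave 0.37 for the log2 length ratio of all 40 genes, -0.39 for the log2 length ratio of S phase genes and 0.60 for the log2 length ratio of mitosis genes. H3K56ac with lengths divided by the covered length of the list gave 0.65 for the log2 length ratio of all 40 genes, -0.0414 for the log2 length ratio of S phase genes and 0.92 for the log2 length ratio of mitosis genes. H3K27ac in kb per Mb of list, LPD minus B cells, gave 0.00518 for Mcm7. H3K18ac in kb per Mb of list, LPD minus B cells, gave -0.00574 for Foxm1, -0.00243 for Ccna2, -0.0303 for Kif23 and -0.0470 for Cenpa. H3K56ac in kb per Mb of list, LPD minus B cells, gave -0.0203 for Mcm5, -0.0405 for Pcna, -0.00370 for Foxm1, -0.0273 for Aurka, -0.0105 for Mad2l1 and -0.00749 for Kif20a. H3K56ac in kb per Mb of list, LPD minus B cells, gave -0.0258 for Cenpa. H3K27ac with only peaks within 1 kb of the span (LPD minus B cells, kb) gave 0.128 for Cenpe. H3K56ac with only peaks within 1 kb of the span (LPD minus B cells, kb) gave 0.220 for Cenpe. For H3K27ac, leaving out 1 list in turn gave 1 to 3 for S phase genes gained, 3 to 6 for all 40 genes lost, 20 to 42 for regions gained, 6 to 11 for regions lost and -0.136 to 0.0630 for the median gene-end difference (kb) of S phase genes. For H3K27ac, leaving out 1 list in turn gave 0 to 1 for S phase start windows gained, 0 to 1 for S phase genes gained 300 bp before the start site and 2 to 4 for mitosis genes gained 300 bp before the start site. For H3K18ac, leaving out 1 list in turn gave 0 to 2 for all 40 genes lost, 31 to 53 for regions gained, 0 to 2 for regions lost, -0.0727 to 0.147 for the median gene-end difference (kb) of S phase genes and 5 to 8 for mitosis start windows gained. For H3K18ac, leaving out 1 list in turn gave 1 to 2 for S phase genes gained 300 bp before the start site. For H3K56ac, leaving out 1 list in turn gave 6 to 8 for S phase genes gained, 0.0980 to 0.291 for the median gene-end difference (kb) of S phase genes, 0 to 2 for S phase start windows gained and 0 to 1 for S phase genes gained 200 bp after the start site. Without LPD list 1 the H3K27ac S phase log2 ratio was -0.06, and without LPD list 2 gained regions numbered 42 in H3K27ac and 53 in H3K18ac. With the replicate block (same-numbered lists as pairs) the log2 ratios were 0.73, 1.47 and 1.75 for mitosis genes, 0.26, 0.49 and 0.78 for S phase genes and 0.58, 1.25 and 1.47 for all 40 genes in H3K27ac, H3K18ac and H3K56ac, and no direction differed. Deviations of same-numbered lists correlated at 0.00936, 0.0108 and -0.00732 across genes, so these lengths showed no pairing by list number. Whether same-numbered lists share an animal or run was not tested. Requiring an overlap of 200 bp could not alter a call, since the narrowest peak is 200 bp. The cause of the other differences was not tested. Positions without heights or depth limit every value: a peak just under the authors' threshold counts as absent, and 2 lists a group allow no p below 0.333.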
